A study of Mus musculus with 6 samples.

Results

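The smooth muscle contractile genes described here are 10 genes of the contractile machinery of smooth muscle: Acta2, Actg2, Myh11, Tagln, Cnn1, Smtn, Lmod1, Des, Synpo2 and Myocd. They were given as a list of gene symbols and looked up by name in the count table, which held 49315 genes, and each of the 10 was found once. Lung cells of male C57BL/6 mice were analyzed by bulk RNA-Seq. The mice had received saline (sham-treated) or bleomycin sulfate (BLM-treated), a DNA-damaging agent that induces lung fibrosis, by the oropharyngeal route, and lungs were taken 21 days later. Cell suspensions were sequenced unsorted or after sorting by Lamp1 on the cell surface into a Lamp1-enriched and a Lamp1-depleted fraction, so that each treatment had 3 libraries. There was 1 library for each of the 6 conditions, prepared from tubes that pooled 2 to 3 lungs of the same treatment, and neither the age of the mice nor a replicate is given.

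Counted reads were 40742095 in unsorted, 39609874 in Lamp1-depleted and 45090413 in Lamp1-enriched cells of sham-treated mice. They were 39728284, 30236120 and 52918696 in the same fractions of BLM-treated mice. Levels are given as scaled counts (CPM), which are counts relative to the TMM-scaled size of the library, and ratios as log2 ratios of scaled counts. Where 3 values are given for a treatment, they stand for unsorted cells, then Lamp1-depleted cells, then Lamp1-enriched cells. Each interval is a 95% interval that covers counting error only, so it compares libraries and not treatments, and no p-value was computed. The BLM Lamp1-depleted library stood apart, with 38.4% of its reads on Gm26917, a gene chosen after values were seen, against 0.884% to 7.10% in the other libraries, and with a TMM factor of 0.699 against 0.993 to 1.19. Lamp1, the sorted marker, had 15493, 6664 and 22587 reads in sham and 19777, 2344 and 20594 reads in BLM. Its log2 ratio of Lamp1-enriched over Lamp1-depleted cells was 1.75 in sham and 1.77 in BLM. Over unsorted cells its Lamp1-enriched log2 ratio was 0.62 in sham but -0.41 (-0.44 to -0.38) in BLM, so that after scaling the BLM Lamp1-enriched library held less Lamp1 RNA than BLM unsorted cells.

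Smooth muscle cells surround the airways and vessels of the lung and contract when the myosin encoded by Myh11 pulls on filaments built from the smooth muscle actins Acta2 and Actg2. Transgelin (Tagln), calponin (Cnn1), smoothelin (Smtn) and leiomodin (Lmod1) bind or organize these filaments, desmin (Des) forms intermediate filaments that link the cell's contractile units, and synaptopodin 2 (Synpo2) lies at actin anchoring sites. Myocardin (Myocd) is a coactivator of serum response factor, which binds the CArG box and drives many of these genes. Acta2 is also the classical marker of the myofibroblasts that form in fibrotic lung, and Des and Acta2 are found in pericytes, the cells that wrap small vessels.

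Acta2 and Actg2 both encode actins, so their coding sequences were compared to see whether reads could be assigned to each. The longest reading frames had 1134 bases in Acta2 and 1131 in Actg2, and 84.4% of their aligned bases were identical. No stretch of 75 bases was shared between transcripts of the genes, nor between either of them and Acta1, Actc1, Actb or Actg1. The first coding bases, from GENCODE M21 transcripts, are shown with the 11 alignment columns that differ in capitals, 3 of which are bases that Actg2 lacks.
Acta2: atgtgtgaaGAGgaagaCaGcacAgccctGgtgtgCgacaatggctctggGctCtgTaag
Actg2: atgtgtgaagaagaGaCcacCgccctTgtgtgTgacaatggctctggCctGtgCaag

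Promoters of 6 members (Acta2, Cnn1, Des, Lmod1, Synpo2 and Smtn) were found in the RefSeq set for GRCm38.p6, which runs from 250 bases before to 50 bases after each start, and those of Tagln, Myh11, Actg2 and Myocd were not. The CArG box was searched on both strands. It was in 0 of the 6 promoters and in 535 of all 32851 promoters of that length (1.63%). With 1 mismatch in its inner bases it was in Acta2 alone of the 6 and in 2792 of all promoters (8.5%). Acta2 held 2 such boxes, which begin 84 and 34 bases before the RefSeq start. They are shown in capitals on the minus strand, at chr19:34255438-34255467 and chr19:34255388-34255417. Acta2 was picked for display after its levels had parted from those of Myh11, Des and Synpo2 in BLM-treated mice. Any link between these levels and the 2 boxes was not tested. GENCODE M21 starts the Acta2 gene 217 bases further upstream, so that in this annotation both lie in its first exon.
Acta2 distal box: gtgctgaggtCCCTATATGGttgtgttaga
Acta2 proximal box: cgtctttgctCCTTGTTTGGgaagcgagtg

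Per kilobase of exon, the order of the members differed between the treatments in Lamp1-enriched cells. In sham Lamp1-enriched cells the levels per kilobase were 9.18 CPM for Des, 5.93 for Smtn, 5.82 for Acta2, 3.23 for Myh11, 2.78 for Synpo2 and 1.10 for Tagln, and the other 4 members lay between 0.0913 and 0.446. In BLM Lamp1-enriched cells Acta2 came first at 14.8 CPM per kilobase, ahead of Smtn at 7.21, Des at 5.46, Myh11 at 2.28, Tagln at 1.62, Actg2 at 1.12 and Synpo2 at 1.11, and the other 3 lay between 0.171 and 0.322. In unsorted cells too Des came first in sham, at 7.46 against 6.39 for Acta2, and Acta2 in BLM, at 7.67 against 2.75 for Des. In Lamp1-depleted cells, by contrast, the first 6 members came in the same order under both treatments, which was Acta2 (1.37 CPM per kilobase in sham and 2.57 in BLM), Smtn, Des, Tagln, Myh11 and Synpo2 (0.216 and 0.315). The levels of Tagln are uncertain: 67.9% of its exon bases are shared with other genes, 1241 of them with the antisense gene Gm48529, and whether strand was used in counting is not given in the sources used here. The shared part was 16.3% for Smtn, 5.86% for Des and 0% for each of the other 7.

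**Figure D1:**
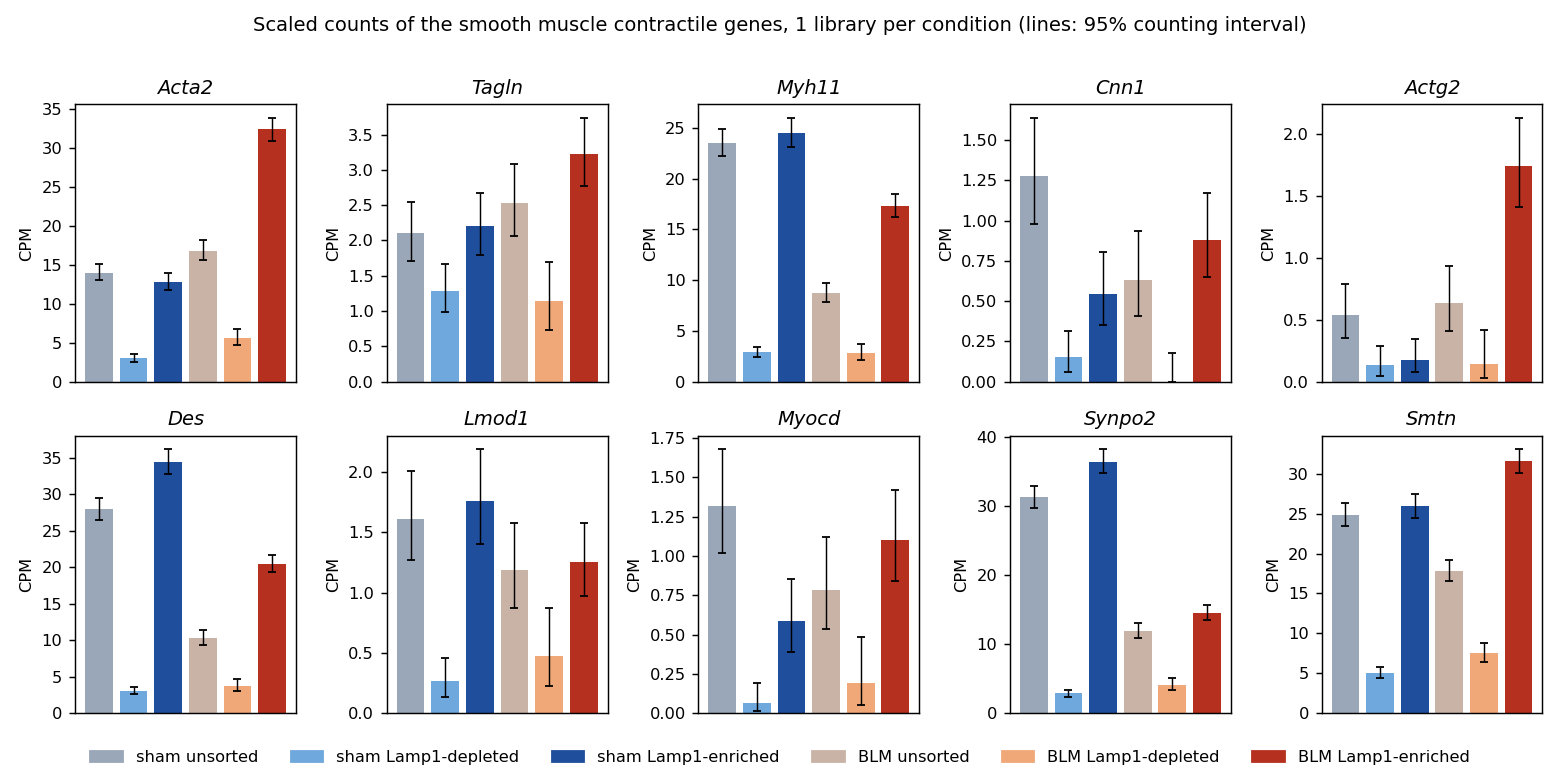
CPM of each contractile gene in the 6 libraries, 1 panel per gene with its own axis from 0; lines are 95% counting intervals. The Lamp1-depleted bars are the lowest of each treatment for each gene, and Acta2 and Actg2 reach their highest levels in BLM Lamp1-enriched cells, at 32.4 and 1.74 CPM.

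Of the smooth muscle actins, Acta2 (ENSMUSG00000035783, chr19:34241090-34255590) was read far more often than Actg2 (ENSMUSG00000059430, chr6:83512905-83536265). Acta2 was at 14.0, 3.01 and 12.8 CPM in sham and at 16.8, 5.63 and 32.4 CPM in BLM. Its levels in the unsorted libraries were close, and it stood out in BLM Lamp1-enriched cells, where 1766 reads were counted. Actg2, the actin typical of gut smooth muscle, had 26, 6 and 8 reads in sham and 25, 3 and 95 reads in BLM. Most of its reads therefore came from a single library, BLM Lamp1-enriched cells.

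Myh11 (ENSMUSG00000018830, chr16:14194535-14291372), the motor protein, was at 23.5, 2.87 and 24.5 CPM in sham and at 8.72, 2.84 and 17.3 CPM in BLM. Unlike Acta2, it was lower in BLM than in sham both in unsorted and in Lamp1-enriched cells. Among the proteins that bind or organize the filaments, Smtn (ENSMUSG00000020439, chr11:3517523-3540612) was at 24.8, 5.05 and 26.0 CPM in sham and at 17.8, 7.48 and 31.6 CPM in BLM. Tagln (ENSMUSG00000032085, chr9:45929619-45936058) was at 2.10, 1.29 and 2.20 CPM in sham and at 2.53, 1.14 and 3.23 CPM in BLM. Both were highest in BLM Lamp1-enriched cells, where the interval of Tagln overlapped that of BLM unsorted cells. Tagln had the smallest ratio of highest to lowest level of the 10 genes. Cnn1 (ENSMUSG00000001349, chr9:22099216-22109630) had 62, 7 and 25 reads in sham and 25, 0 and 48 reads in BLM, and the 0 reads in BLM Lamp1-depleted cells stand for a floor of 0.142 CPM (3 reads), while the exact interval ends at 0.175 CPM. Lmod1 (ENSMUSG00000048096, chr1:135324807-135368065), which nucleates actin filaments, had 78, 12 and 81 reads in sham and 47, 10 and 68 reads in BLM. These are low counts, and the Lmod1 levels of the unsorted and Lamp1-enriched libraries, 1.19 to 1.76 CPM, had overlapping intervals.

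Des (ENSMUSG00000026208, chr1:75360329-75368579) was at 28.0, 3.05 and 34.5 CPM in sham and at 10.3, 3.74 and 20.5 CPM in BLM. Synpo2 (ENSMUSG00000050315, chr3:123076519-123236149) was at 31.2, 2.83 and 36.4 CPM in sham and at 11.9, 4.12 and 14.5 CPM in BLM. Both were highest in sham Lamp1-enriched cells, and Synpo2 in BLM Lamp1-enriched cells stayed below its level in either of the sham unsorted and Lamp1-enriched libraries. Myocd (ENSMUSG00000020542, chr11:65176561-65269989), the only transcriptional regulator among the members, had 64, 3 and 27 reads in sham and 31, 4 and 60 reads in BLM. Its level was highest in unsorted cells in sham and in Lamp1-enriched cells in BLM. The BLM order lies within counting error, since the log2 ratio of Lamp1-enriched over unsorted cells was 0.48 (-0.16 to 1.16).

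Unsorted cells of BLM-treated and sham-treated mice were compared first, to see how the whole lung suspension differed between the treatments. Myh11 was 2.70-fold, Des 2.71-fold and Synpo2 2.62-fold lower in BLM. Acta2, Tagln and Actg2 differed little. The log2 ratios, BLM over sham, were -1.43 for Myh11 (-1.61 to -1.26), -1.44 for Des (-1.60 to -1.28) and -1.39 for Synpo2 (-1.54 to -1.24). Those of Cnn1, Myocd, Smtn and Lmod1 were -0.998 (-1.74 to -0.32), -0.74 (-1.41 to -0.11), -0.48 (-0.62 to -0.34) and -0.43 (-0.99 to 0.11). The log2 ratio of Acta2 was 0.26 (0.11 to 0.42) and turned to -0.0001 with total counts only, and that of Actg2 was 0.24 (-0.61 to 1.09) and turned to -0.02. That of Tagln was 0.27 (-0.14 to 0.68) and fell to 0.0077 with total counts only, so no difference was detectable for Tagln or Actg2 at this depth. Of the 10 members, 3 were at least 2-fold lower and 0 at least 2-fold higher, where 16% of all 22772 tested genes were lower and 13.9% higher. Cnn1, at 1.997-fold, fell just short of that limit, and 4 members were lower with total counts, with total counts outside Gm26917, with TMM on genes with at least 10 reads in all 6 libraries and with TMM factors computed without BLM Lamp1-depleted cells. The members' median was -0.61, against -0.07 over all tested genes. In bulk samples fewer cells of a type and less RNA per cell cannot be told apart.

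Other cell types' markers also differed between the unsorted libraries, where 16% of all genes were lower and 13.9% higher in BLM. The gene named as most abundant on a list is the one with the highest mean CPM over the 6 libraries, and it need not be first in each of them. Of 13 pericyte markers, 9 were at least 2-fold lower and 1 higher in BLM; their summed levels were 624, 86.6 and 738 CPM in sham and 247, 61.4 and 294 CPM in BLM, with Gucy1a1 the most abundant and 0 markers at 0 reads. Of 16 resting fibroblast markers, with Limch1 the most abundant, 10 were lower and 1 higher, and they summed to 982, 150 and 562 CPM in sham and 324, 94.7 and 318 CPM in BLM. Most but not all pericyte and resting fibroblast markers were thus at least 2-fold lower, as Myh11, Des and Synpo2 were. Those at least 2-fold higher were the pericyte marker Cspg4 (16.2 CPM in sham and 72.3 CPM in BLM unsorted cells) and the resting fibroblast marker Pi16. The direction was not particular to these lists. At least 2-fold lower were also 6 of 11 endothelial, 7 of 12 cardiac and 5 of 9 skeletal muscle markers, with 0, 1 and 1 higher. Wnt2 in BLM Lamp1-depleted cells was the only gene of the pericyte and resting fibroblast lists at 0 reads. Of 16 markers of fibrotic fibroblasts, with Col1a1 the most abundant, 10 were higher and 1 lower. In sham the first was Col3a1 in unsorted (97.8 CPM), Col12a1 in Lamp1-enriched (81.4 CPM) and Tgfbi in Lamp1-depleted cells (20.4 CPM). The 16 summed to 450.5, 92.4 and 344 CPM in sham and 1302, 282 and 1182 CPM in BLM, with Cthrc1 at 0 reads in BLM Lamp1-depleted cells. Tgfbi had another pattern in BLM than Col1a1, at 325, 67.5 and 47.85 CPM against 415, 91.1 and 444 CPM. Which cells the Tgfbi reads came from was not tested. Of 11 endothelial markers, with Cdh5 the most abundant, 6 were lower and 0 higher (6826, 1547 and 11300 CPM in sham; 3735, 996 and 9992 CPM in BLM; none at 0 reads). Of 12 leukocyte markers, with Lyz2 the most abundant except in sham Lamp1-depleted cells (Cd74 at 3462 CPM), 5 were higher and 2 lower, with sums of 3156, 9289 and 1546 CPM in sham and 21280, 5811 and 3403 CPM in BLM and none at 0 reads. The part of these cell types in the levels of the contractile genes was not tested.

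Des and the actins are shared with other muscle, so cardiac and skeletal muscle markers were read as well. Of 12 cardiac markers, 7 were lower and 1 higher in BLM unsorted cells, beside 16% and 13.9% of all genes. The 12 summed to 70.9, 15.8 and 31.7 CPM in sham and 40.2, 91.1 and 24.1 CPM in BLM. Ttn was the most abundant, and at 77.0 CPM it made up most of the 91.1 CPM in BLM Lamp1-depleted cells, the library that stood apart. Myl7, Nppa, Sln and Myl3 were at 0 reads in that library. Cardiac myosin Myh6 had 229, 21 and 91 reads in sham and 49, 9 and 36 reads in BLM. Of 9 skeletal muscle markers tested, 5 were lower and 1 higher in BLM unsorted cells, with sums of 16.1, 5.90 and 10.3 CPM in sham and 9.53, 8.85 and 6.33 CPM in BLM. Acta1 was the most abundant of them by its mean, but Mylpf (2.48 CPM) was first in sham and Tnnt3 (3.50 CPM) in BLM Lamp1-depleted cells, and 2 of 10 were at 0 reads in sham Lamp1-depleted, 1 in BLM unsorted and 1 in BLM Lamp1-depleted cells. Their part in the Des values was not tested.

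**Figure D2:**
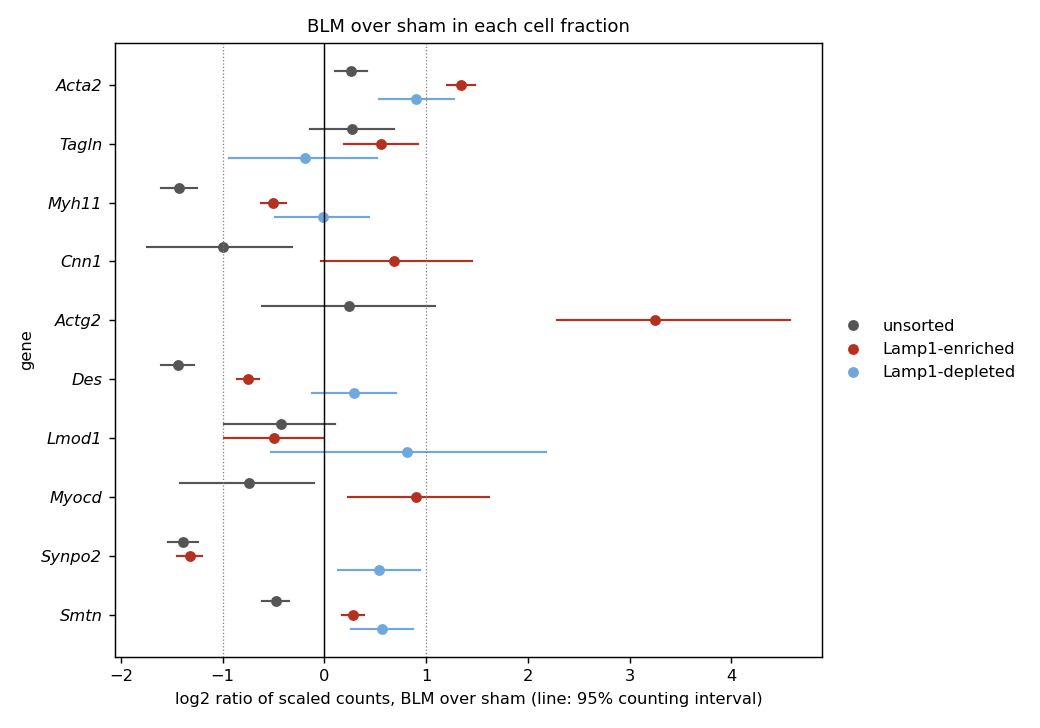
Log2 ratio of scaled counts, BLM over sham, for each contractile gene in unsorted, Lamp1-enriched and Lamp1-depleted cells; lines are 95% counting intervals, dotted lines mark 2-fold, and genes under 10 reads in both libraries are left out. Acta2 lies at 1.34 and Actg2 at 3.25 in Lamp1-enriched cells, where Synpo2 lies at -1.32.

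Lamp1-enriched cells were then compared between the treatments. Here the members went in both directions: Acta2 was 2.53-fold and Actg2 9.54-fold higher in BLM, and Synpo2 was 2.5-fold lower. The log2 ratios were 1.34 for Acta2 (1.21 to 1.48), 3.25 for Actg2 (2.29 to 4.58) and -1.32 for Synpo2 (-1.45 to -1.20). The Actg2 ratio rests on 95 reads against 8. Between these values lay Myocd at 0.90 (0.23 to 1.62), Cnn1 at 0.69 (-0.03 to 1.46), Tagln at 0.55 (0.20 to 0.92) and Smtn at 0.28 (0.17 to 0.39). Des was at -0.75 (-0.86 to -0.64), Myh11 at -0.50 (-0.63 to -0.38) and Lmod1 at -0.49 (-0.98 to -0.01). At least 2-fold higher were 2 of 10 members and lower 1 of 10, beside 10.2% and 7.86% of all 21671 tested genes, and the medians were 0.42 for the members and 0.00 over all genes. The other actins did not share the Acta2 and Actg2 values: the log2 ratio was 0.10 for Actb, 0.23 for Actg1, -0.87 for Acta1 and -0.55 for Actc1.

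In the same comparison 9 of 16 fibrotic fibroblast markers were at least 2-fold higher in BLM and 0 lower, among them Tnc at 4.22, Col1a1 at 3.24 and Grem1 with 330 reads against 1. Pericyte markers were lower in 7 of 13 and higher in 0, with Trpc6 at -1.95 and Rgs5 at -0.49. Acta2 and Actg2 were thus past 2-fold in the same direction as most fibrotic fibroblast markers, and Synpo2 in the same direction as most pericyte markers, while Des, at -0.75, did not pass it. The part of either cell type was not tested. Airway smooth muscle markers, with Foxf1 the most abundant, were split in Lamp1-enriched cells: 2 of 7 were higher (Chrm2 at 1.18 and Aldh1a2 at 2.26) and 1 was lower (Nog at -4.14). Of all genes in this comparison, 10.2% were higher and 7.86% lower. In unsorted cells 4 of 7 airway markers were lower and 0 higher (median -1.25), beside 16% and 13.9% of all genes. In Lamp1-depleted cells 5 of 6 tested were lower and 0 higher (median -1.65), beside 22.3% and 13.7% of all genes, and this comparison rests on the BLM Lamp1-depleted library, which stood apart. Chrm2 and Foxf1 are also on lists of smooth muscle regulators and receptors, as Notch3 and Gucy1a1 of the pericyte markers are. The airway markers summed to 462, 81.3 and 670 CPM in sham and to 191, 27.0 and 582 CPM in BLM, and Lgr6 and Nog were at 0 reads in BLM Lamp1-depleted cells. Foxf1 alone was at 401, 61.5 and 615 CPM in sham and at 154, 23.2 and 492 CPM in BLM, so these sums mostly follow that gene. Foxf1 was highest in Lamp1-enriched cells under both treatments, as the summed endothelial markers were. Aldh1a2 was highest in unsorted cells, with 126, 42 and 18 reads in sham and 188, 9 and 104 reads in BLM. Which cells these reads came from was not tested, so the list is not read as a measure of airway smooth muscle. Over sham unsorted cells, the median Lamp1-enriched log2 ratio of the list was -0.47.

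Lamp1-depleted cells held few reads of the contractile genes, 853 in sham and 544 in BLM over the 10 members together. Only 7 members had at least 10 reads in either library; Cnn1, Actg2 and Myocd did not. The log2 ratio, BLM over sham, was 0.90 for Acta2 (0.54 to 1.27). It was 0.57 for Smtn (0.27 to 0.87), 0.54 for Synpo2 (0.13 to 0.94) and 0.29 for Des (-0.12 to 0.70), and with total counts only these 3 turned to -0.15, -0.18 and -0.42. It was 0.81 for Lmod1 (-0.52 to 2.18), -0.19 for Tagln (-0.94 to 0.52) and -0.02 for Myh11 (-0.48 to 0.43), which turned to 0.13 with DESeq2 size factors and to 0.15 with TMM on genes with at least 10 reads in all 6 libraries. Of the 7 members, 0 passed 2-fold in either direction, beside 13.7% of all 20852 tested genes higher and 22.3% lower, and their median was 0.54 against -0.20 over all genes. Acta2 alone crossed that limit under another scaling, at 1.05 with DESeq2 size factors and 1.07 with TMM on genes with at least 10 reads in all 6 libraries, and with total counts only it was at 0.19. The comparison depends on the library that stood apart: total counts only move each of its ratios by -0.72.

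Sorting was compared next, Lamp1-enriched over Lamp1-depleted cells within each treatment. Under both treatments each tested member had its higher level in Lamp1-enriched cells, by the most in sham for Synpo2 (12.8-fold), Des (11.3-fold) and Myh11 (8.51-fold). In sham the log2 ratios of these genes were 3.68 (3.43 to 3.95), 3.49 (3.25 to 3.76) and 3.09 (2.83 to 3.37). Myocd, Lmod1, Smtn, Acta2 and Cnn1 followed at 2.96, 2.69, 2.36, 2.08 and 1.75, and Tagln was lowest at 0.76 (0.28 to 1.25). The interval of Cnn1, 0.57 to 3.28, reached below the 2-fold limit. At least 2-fold higher were 8 of 9 tested members and lower 0 of 9, beside 27.5% and 25.2% of all 21867 tested genes, with a median of 2.69 against -0.01 over all genes. Actg2, with 8 and 6 reads, was not tested. Over sham unsorted cells, by contrast, 0 of 10 members were at least 2-fold higher in Lamp1-enriched cells and 3 were lower. Their median there was 0.06, against -0.03 over all genes, and the share of all genes past 2-fold was not computed for that comparison.

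In BLM-treated mice 10 of 10 members were at least 2-fold higher in Lamp1-enriched than in Lamp1-depleted cells and 0 lower, beside 34.3% and 22.6% of all 21838 tested genes. The log2 ratios were 3.50 for Actg2 (2.03 to 5.92), 2.60 for Myh11 (2.23 to 3.01), 2.52 for Acta2 (2.26 to 2.80) and 2.45 for Des (2.12 to 2.80). They were 2.46 for Myocd, 2.08 for Smtn, 1.82 for Synpo2, 1.5 for Tagln and 1.37 for Lmod1. Cnn1, with 48 reads against 0, was at least 6.2-fold higher when 3 reads are taken for the library at 0, and its log2 counting interval begins at 2.28. The median was 2.45, also with Cnn1 at that bound, against 0.29 over all genes. Because the denominator is the library that stood apart, unsorted cells give a second reading. Over BLM unsorted cells the Lamp1-enriched log2 ratios were 1.44 for Actg2, 0.99 for Myh11, 0.99 for Des, 0.94 for Acta2 and 0.83 for Smtn. They were 0.48 for Myocd, 0.47 for Cnn1, 0.35 for Tagln, 0.28 for Synpo2 and 0.07 for Lmod1. By this reading 1 of 10 members, Actg2, was at least 2-fold higher and 0 lower, beside 12.6% and 19.1% of all 22149 tested genes, with a median of 0.65 against 0.04 over all genes.

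**Figure D3:**
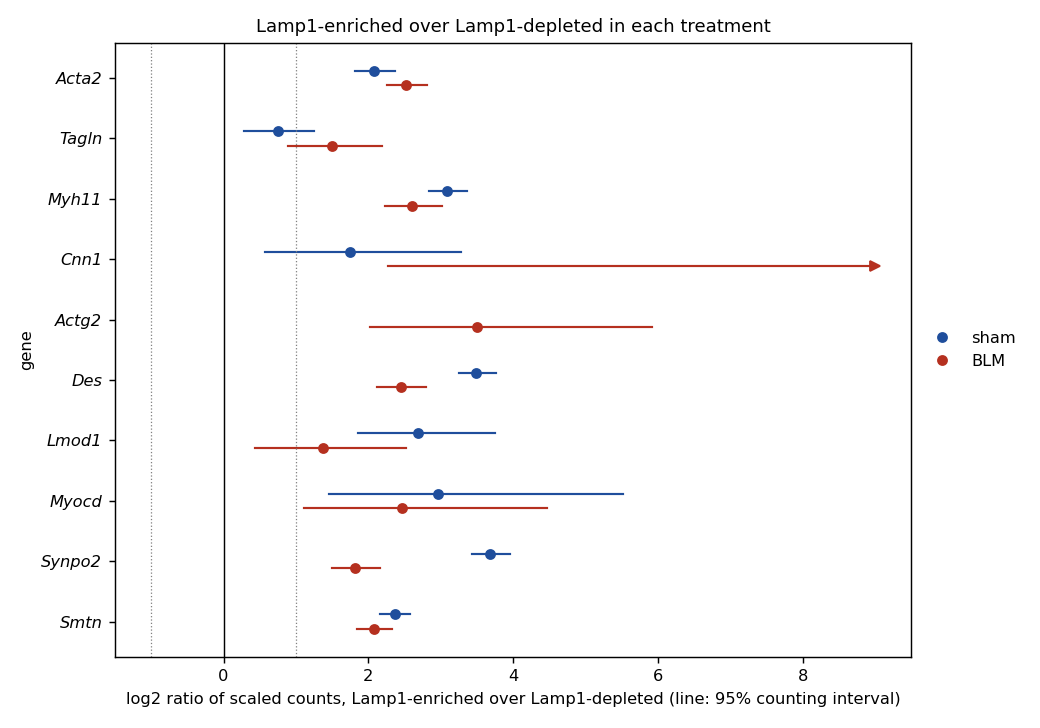
Log2 ratio of scaled counts, Lamp1-enriched over Lamp1-depleted, for each contractile gene in sham and BLM; lines are 95% counting intervals, dotted lines mark 2-fold, the arrow marks an interval with no upper end because Cnn1 had 0 reads in BLM Lamp1-depleted cells, and Actg2 in sham is left out at under 10 reads. Synpo2 shows a wide gap between the treatments, at 3.68 in sham and 1.82 in BLM.

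Higher levels in Lamp1-enriched cells were shared with many other genes of the same suspensions. In sham 12 of 13 pericyte, 11 of 11 endothelial, 12 of 13 epithelial and 13 of 16 resting fibroblast markers were at least 2-fold higher in Lamp1-enriched cells, and in BLM 13, 11, 9 and 14 of them were. Epithelial markers, with Sftpc the most abundant, summed to 1436, 177 and 1095 CPM in sham and to 449, 152 and 350.3 CPM in BLM, with none at 0 reads. Of 12 leukocyte markers, 10 in sham and 8 in BLM were at least 2-fold lower in Lamp1-enriched cells, with Ptprc at -3.68 and -2.87. Over sham unsorted cells the lists parted: the median Lamp1-enriched log2 ratio was 0.79 for endothelial markers, 0.17 for pericyte markers and 0.06 for the contractile genes, but -0.48 for epithelial and -0.81 for resting fibroblast markers. The part of these cells in the ratios of the contractile genes was not tested. Mesothelial markers were higher in 4 and lower in 3 of 9 tested in sham, beside 27.5% and 25.2% of all genes, and higher in 6 and lower in 2 of 9 in BLM, beside 34.3% and 22.6%. Krt19 was the most abundant, but Cpe was first in both Lamp1-enriched libraries (19.8 CPM in sham and 13.5 CPM in BLM). Their sums were 61.7, 10.9 and 38.9 CPM in sham and 66.0, 13.0 and 38.6 CPM in BLM, and Calb2 was at 0 reads in both sham sorted libraries and in BLM Lamp1-enriched cells.

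The sorting ratio itself differed between the treatments by different amounts from gene to gene. The log2 ratio in BLM minus that in sham was -1.86 for Synpo2 (-2.29 to -1.44), -1.04 for Des (-1.47 to -0.61), -1.32 for Lmod1 (-2.78 to 0.12), 0.44 for Acta2 (0.04 to 0.83) and 3.13 for Actg2 (0.62 to 6.01), which rests on 8 and 6 reads in sham and 95 and 3 in BLM. Cnn1 has no such value because 1 library was at 0. It was 0.74 for Tagln (-0.07 to 1.58), and it was -0.49 for Myh11 (-0.96 to -0.0009), -0.29 for Smtn (-0.61 to 0.03) and -0.50 for Myocd (-3.49 to 2.04), which turned to 0.25, 0.45 and 0.23 with total counts only. The median of all tested genes moved by 0.31 by the same subtraction, and total counts only added 0.73 to each difference. DESeq2 size factors shifted each by -0.16, and TMM on genes with at least 10 reads in all 6 libraries by -0.18. The Acta2 difference was then 0.27 and 0.26, and both shifts are larger than the distance of its interval from 0. Such a shift is the same for each gene, so the distance between Acta2 and Synpo2 is not changed by it.

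A further question was whether the sorted fractions together hold what the unsorted cells hold. In sham 3 of 10 members, Cnn1, Actg2 and Myocd, were at least 2-fold higher in unsorted cells than in both sorted fractions, beside 7.69% of all 21842 tested genes. In BLM 0 of 10 were, beside 9.35% of 20534 genes. The log2 ratio of Lamp1-enriched over unsorted sham cells was -1.57 for Actg2 (-2.98 to -0.44), -1.22 for Cnn1 (-1.96 to -0.54) and -1.15 for Myocd (-1.87 to -0.50). The 3 genes had 26, 62 and 64 reads in sham unsorted cells, the fewest of the 10 members there. For Myh11, Synpo2 and Des, with 1142, 1517 and 1360 reads there, the ratio was 0.06, 0.22 and 0.30, so these levels in sham Lamp1-enriched cells were close to those in unsorted cells.

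The makeup of the contractile reads was next examined within each library, where no scaling between libraries enters. The 10 genes had 6237, 853 and 6415 reads in sham and 2816, 544 and 6789 reads in BLM. Acta2 made up 10.9%, 16.1% and 9.17% of them in sham and 23.6%, 21.9% and 26.0% in BLM. The Acta2 share was thus higher in each BLM library than in the sham library of the same fraction, with intervals apart in unsorted (10.2% to 11.7% and 22.0% to 25.2%) and Lamp1-enriched cells (8.47% to 9.90% and 25% to 27.1%) and overlapping in Lamp1-depleted cells (13.7% to 18.7% and 18.5% to 25.6%). Synpo2 made up 24.3%, 15.1% and 26.1% in sham and 16.7%, 16% and 11.7% in BLM. Des made up 21.8%, 16.3% and 24.7% in sham and 14.5%, 14.5% and 16.5% in BLM. The Smtn share was 19.3%, 27.0% and 18.6% in sham and 24.9%, 29% and 25.4% in BLM, so that its share was larger in BLM in unsorted and Lamp1-enriched cells, with overlapping intervals in Lamp1-depleted cells (24% to 30.1% and 25.3% to 33.1%).

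**Figure D4:**
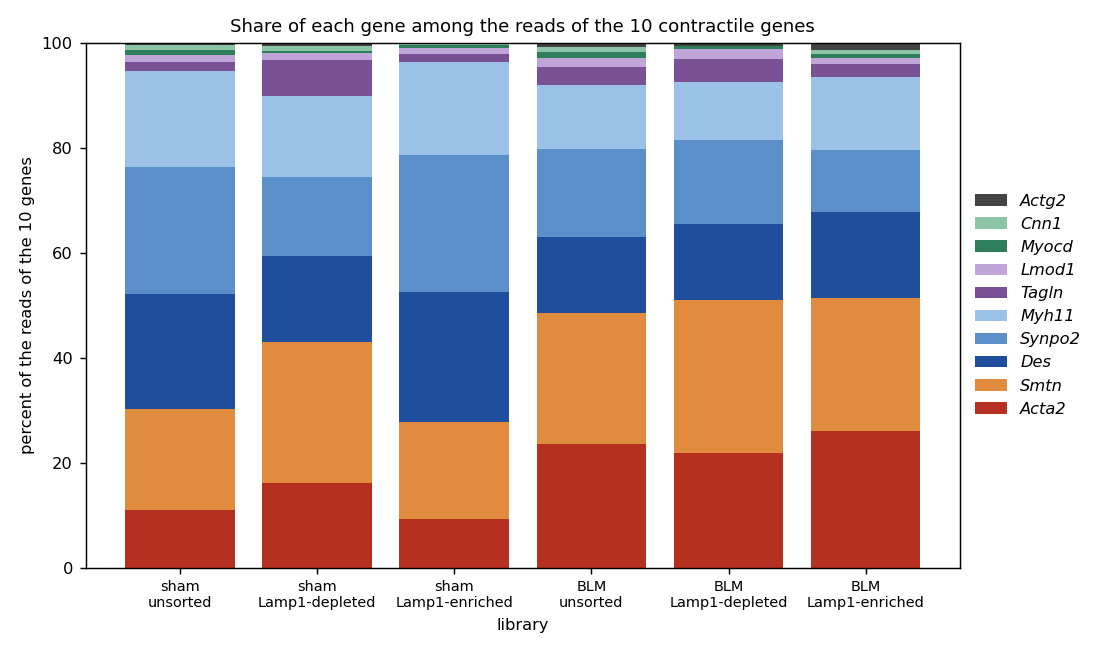
Percent of the reads of the 10 contractile genes that each gene takes in each library, stacked from 0 to 100. The Acta2 share runs from 9.17% to 16.1% in the sham libraries and from 21.9% to 26.0% in the BLM libraries.

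Ratios between pairs of members, chosen after values were seen, express the same reads within a library and add no independent evidence. Per read of Myh11 there were 0.596, 1.05 and 0.521 reads of Acta2 in sham and 1.93, 1.98 and 1.87 reads in BLM. The 3 BLM values lay close together and above those of sham. Per read of Des there were 0.501, 0.986 and 0.371 reads of Acta2 in sham and 1.63, 1.51 and 1.58 in BLM, with overlapping intervals in Lamp1-depleted cells (0.773 to 1.26 and 1.12 to 2.03). Myh11 and Des varied less against each other: Myh11 per read of Des was 0.840, 0.942 and 0.712 in sham and 0.845, 0.760 and 0.846 in BLM. Synpo2 per read of Des was 1.12, 0.928 and 1.06 in sham and 1.16, 1.10 and 0.709 in BLM, so that it was lowest in BLM Lamp1-enriched cells (0.647 to 0.777). There were 0.00709 reads of Actg2 per read of Myh11 in sham Lamp1-enriched cells (0.00305 to 0.0140) and 0.101 in BLM Lamp1-enriched cells (0.0805 to 0.124). Both actins were thus higher relative to Myh11 in BLM than in sham Lamp1-enriched cells.

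**Figure D5:**
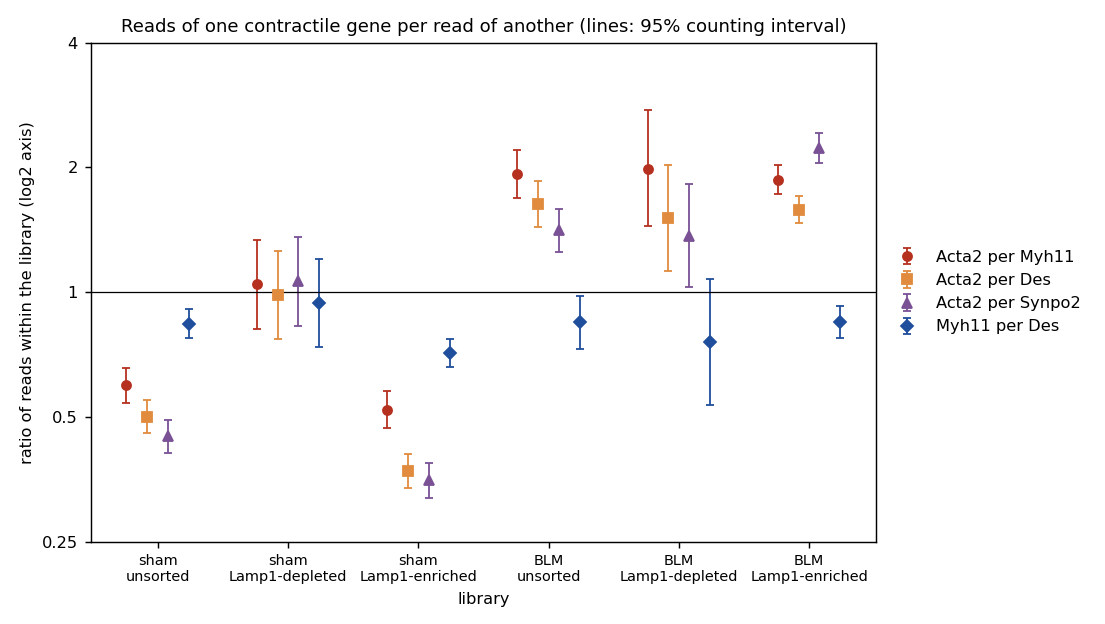
Reads of Acta2 per read of Myh11, Des and Synpo2, and of Myh11 per read of Des, within each library on a log2 axis; lines are 95% counting intervals. Acta2 per Myh11 lies between 0.521 and 1.05 in the sham libraries and between 1.87 and 1.98 in the BLM libraries, while Myh11 per Des lies between 0.712 and 0.942 in all 6.

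Other genes of the same apparatus were read from a list of 28, which holds the myosin light chain and its kinase, tropomyosins, caldesmon and anchoring proteins. In unsorted cells 13 were at least 2-fold lower and 1 higher in BLM, with a median of -0.81, beside 16% and 13.9% of all genes. Mylk, which phosphorylates the light chain that activates Myh11, was at -1.26, Myl9 at -1.59, the intermediate filament gene Synm at -2.03 and the phosphatase inhibitor gene Ppp1r14a at -2.91, and Actn1 alone was higher, at 1.13. In Lamp1-enriched cells 5 were lower and 1 higher (median -0.26), beside 7.86% and 10.2% of all genes. In Lamp1-depleted cells 3 of 26 tested were lower and 2 higher, beside 22.3% and 13.7% of all genes, and their median of -0.26 was near the -0.20 of all genes. Lamp1-enriched over Lamp1-depleted, 20 of 27 were higher in sham and 22 of 28 in BLM, beside 27.5% and 34.3% of all genes, and 0 lower in either, with medians of 2.24 and 2.12. Flna was the most abundant of the 28, and Kcnma1 was at 0 reads in BLM Lamp1-depleted cells.

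Upstream of the members, Myocd acts with Srf and with the related cofactors Mrtfa and Mrtfb. Srf had log2 ratios, BLM over sham, of 0.02 in unsorted, 0.11 in Lamp1-enriched and 0.35 in Lamp1-depleted cells, where Myocd was at -0.74 and 0.90 in the first pair and not tested in the third. Of 16 transcription factors and cofactors of smooth muscle, 4 were at least 2-fold lower and 0 higher in unsorted cells (Notch3 at -1.84 and Foxf1 at -1.38 among them), 1 lower and 0 higher in Lamp1-enriched cells, and 3 lower and 1 higher in Lamp1-depleted cells. Of all genes, 16% were lower and 13.9% higher in unsorted, 7.86% and 10.2% in Lamp1-enriched and 22.3% and 13.7% in Lamp1-depleted cells, so that the counts of lower genes in the sorted fractions are near the share of all genes. The medians were -0.60, -0.03 and -0.33. Sorting placed 11 of 16 at least 2-fold higher in Lamp1-enriched cells in each treatment, with 2 lower in sham and 1 in BLM, beside 27.5% of all genes higher in sham and 34.3% in BLM. Myocd, which is not one of the 16, had sorting ratios of 2.96 and 2.46, and Srf, at 0.29 and 0.05, differed little between the fractions.

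Receptors and channels that set the tone of smooth muscle were read from a list of 23. In unsorted cells 7 were at least 2-fold lower and 2 higher in BLM (median -0.48), beside 16% and 13.9% of all genes, with the adrenergic receptor gene Adra1a at -4.13 and the prostacyclin receptor gene Ptgir at 3.08. In Lamp1-enriched cells 5 were higher and 6 lower (median -0.29), beside 10.2% and 7.86% of all genes, from -2.98 for Adra1a to 1.77 for the vasopressin receptor gene Avpr1a. In Lamp1-depleted cells 1 of 20 tested was higher and 5 lower (median -0.15), beside 13.7% and 22.3% of all genes. Sorting placed 15 of 23 higher and 1 lower in Lamp1-enriched cells in sham, beside 27.5% and 25.2% of all genes, and 14 of 22 higher and 3 lower in BLM, beside 34.3% and 22.6%. Ptgir stood out in BLM unsorted cells alone, at 31.4, 7.86 and 5.78 CPM in BLM against 3.71, 4.61 and 4.09 CPM in sham. Which cells the Ptgir reads came from was not tested.

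Relatives of the members outside the list were read as well. Among 13 paralogs of the myosin, calponin, transgelin, leiomodin, synaptopodin and smoothelin families, 1 of 12 tested was at least 2-fold higher and 3 lower in unsorted cells, beside 13.9% and 16% of all genes. In Lamp1-enriched cells 1 of 11 was higher and 1 lower, beside 10.2% and 7.86% of all genes, which is near the share of all genes. Synpo, the relative of Synpo2, had 1582, 160 and 2052 reads in sham and 3273, 470 and 9920 reads in BLM. It was therefore higher in BLM in each fraction, at 1.35 in unsorted and 2.03 in Lamp1-enriched cells, where Synpo2 was at -1.39 and -1.32. The nonmuscle myosin genes Myh9 and Myh10 were at 0.52 and -1.18 in unsorted cells and at 0.22 and -0.72 in Lamp1-enriched cells, beside -1.43 and -0.50 for Myh11.

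The members were finally placed by how closely each followed their mean profile over the 6 libraries, among 17935 genes with at least 50 reads in a library. The measure was the Euclidean distance of centred log2 CPM, and no function is read from it. Each member helps to form this mean profile, so the closeness of the members is in part built in. Their ranks therefore do not measure how closely they follow each other. Smtn was nearest among the members (distance 0.657, rank 188), followed by Myh11 (0.949, rank 724) and Lmod1 (0.968, rank 772). Actg2, at 2.17 and rank 4657, was farther from it. No place is given for Cnn1, since its 0 reads in BLM Lamp1-depleted cells leave the added 0.5 reads to set its value there. The same value enters the mean profile, and with it all distances. The 10 nearest genes from outside the list were Clec12b (0.138), Evpl, Fgfr3, Pcdhga5, Map1a, Pcdhga3, Tshb, Rgl3, Arhgef16 and Gm5970 (0.351).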

How the data were processed

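The deposited table holds raw read counts per gene, a count made by the authors with no normalization. The submitters' processing notes name Trimmomatic 0.36, STAR 2.5.2b, featureCounts of Subread 1.5.2, DESeq2 and GRCm38; the strand setting and the treatment of reads that overlap 2 genes are not given in the sources used here. The 6 libraries, grouped by label, held 30236120 to 52918696 counted reads.

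TMM factors came from edgeR 4.0.16 (R 4.3.3) and alternative size factors from DESeq2 1.42.0. Ratios were computed in Python 3.11.15 (numpy 2.4.6; scipy 1.17.1; pandas 2.3.3; matplotlib 3.10.9 for plots) after adding 0.5 reads. A gene was tested against a 2-fold limit if its higher library held 10 reads or more. For unsorted cells against both sorted fractions, the unsorted library itself had to hold 10 reads or more. That filter rests on the library that is tested as the higher one. Intervals (95%) were Clopper-Pearson for ratios and shares, exact Poisson for levels and exact conditional for differences of ratios, and a library at 0 was set to 3 reads for a bound. The programs were tested on simulated data. Exons came from GENCODE M21 (48970 genes matched by identifier) and promoters from RefSeq.

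The members and lists were chosen with earlier results of these data known. Of other lists, defining genes, the most abundant and those with the largest ratios were named. The gene pairs, the shares, Gm26917, and TMM without BLM Lamp1-depleted cells were chosen after values were seen. The alternatives were other scalings, 2 reads added, a minimum of 1 or 50 reads, a 4-fold limit, and whole intervals past 2-fold.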

Additional observations from a re-analysis of the deposited data

Results flagged for a closer look

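For 3 contractile genes the BLM over sham log2 ratio went in opposite directions in different cell fractions, with counting intervals away from 0 on both sides. Myocd was at -0.74 in unsorted and 0.90 in Lamp1-enriched cells. Synpo2 was at -1.39 in unsorted and -1.32 in Lamp1-enriched cells but at 0.54 in Lamp1-depleted cells. Smtn was at -0.48 in unsorted cells and at 0.28 in Lamp1-enriched and 0.57 in Lamp1-depleted cells. With total counts only the Lamp1-depleted values of Synpo2 and Smtn were -0.18 and -0.15. The ratio in Lamp1-enriched minus that in Lamp1-depleted cells was -1.86 for Synpo2 (counting interval -2.29 to -1.44) and -0.29 for Smtn (-0.61 to 0.03). These are the same values as the BLM minus sham differences of the sorting ratio given above. For Smtn these fractions went in the same direction, so its value does not bear on the opposite direction in unsorted cells. Differences from the unsorted ratio were not computed for Myocd or Smtn. With 1 library per condition, the difference between fractions was not tested over replicates for any of these genes.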

How the results depend on the processing

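Of 113 counts of members recomputed under an alternative, 105 lay within 1.5 times the reported count and 8 did not. In Lamp1-depleted cells, BLM over sham, against 0 reported, 1 member (Acta2) was higher with DESeq2 size factors and 1 (Acta2) with TMM on genes with at least 10 reads in each library, since these scalings raise all ratios of this comparison. A minimum of 1 read admits Myocd (4 against 3 reads), then 1 higher, and Cnn1 (0 against 7 reads), then 1 lower. With a 4-fold limit, which by its construction passes fewer genes, 0 members were lower in unsorted cells, 1 was higher and 0 lower in Lamp1-enriched cells, and 0 were above both sorted fractions in sham. Of 345 recomputed log2 ratios of single members, 325 lay within the reported interval and 20 did not, and 7 changed sign, 2 in unsorted and 5 in Lamp1-depleted cells.

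Scaling moves the ratios of all genes together. Relative to TMM, total counts only shifted BLM over sham by -0.26 in unsorted and -0.72 in Lamp1-depleted cells, and Lamp1-enriched over Lamp1-depleted by -0.17 in sham and 0.56 in BLM. Total counts outside Gm26917 shifted the unsorted comparison by -0.18 and the sorting ratios by -0.21 and -0.12. DESeq2 size factors shifted the comparisons that use BLM Lamp1-depleted cells by 0.15 and -0.15, and TMM on genes with at least 10 reads in each library by 0.17 and -0.21. With 1 library per group no replicate could be left out, and no fit that pairs sham and BLM libraries by fraction was run. Cnn1, Actg2, Myocd and Lmod1 had under 100 reads in each library, so their ratios are loosely bound.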
